A study of Mus musculus with 36 samples.

Results

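The subject is a set of 8 cell cycle regulators in mouse bladder: the kinase gene Wee1, the inhibitor genes Cdkn1a, Cdkn1b and Cdkn1c, the D-type cyclin genes Ccnd1 and Ccnd2, the transcription factor gene Myc and the stress gene Gadd45a. They were picked by symbol, and all 8 were found among the 49585 features of the deposited tables. The choice was made with earlier results of these data known, so the adjusted p-values below are no independent support for it. In other tissues several of them are described as gated by the clock. In these data Wee1 alone of the 8 had a 24 h rhythm that passed the test, in vehicle, where 5 had an unadjusted p under 0.05. The set is therefore called cell cycle regulators here.

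Whole bladder RNA came from C57BL/6 mice after removal of both adrenal glands, the main source of corticosterone. One arm of 18 libraries came from animals given corticosterone (CORT), the main glucocorticoid of rodents, at an inactive-phase time, and the other arm of 18 from animals given vehicle. Both arms therefore lack adrenal hormones of their own. Each arm has 3 libraries at each of 6 time labels, 4, 8, 12, 16, 20 and 24 h, but which clock time counts as zero is not stated. Age and sex are not given in the labels, and whether the 3 libraries of a group stem from different animals is not said, so each p-value reflects library-to-library spread that may in part be technical. The protocol text describes blood RNA with globin removal, although the source of every sample is bladder.

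In the cell, a cyclin-dependent kinase (CDK) drives each step of the cycle when its cyclin partner is present. D-type cyclins carry growth signals into the first of these steps, the CDK inhibitors p21, p27 and p57 (from Cdkn1a, Cdkn1b and Cdkn1c) hold the kinases back, and the kinase WEE1 blocks entry into mitosis by phosphorylating CDK1. In mouse liver Wee1 is a known target of the clock through E-box elements, and Cdkn1a is under REV-ERB and ROR control, which is what the word gating refers to. Glucocorticoids reset clocks outside the brain, in part through Per1. In the adult bladder most cells are quiescent, and the urothelium turns over slowly.

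The deposited values are read counts per gene that were quantile normalized, so a value is a number of reads on a shared scale and not per length. Mean total counts were 11016413 reads per CORT library and 10682675 per vehicle library, and 9591304 to 12311337 by arm and replicate number. Counted back, 20 units corresponded to 12 to 30 reads (median 19), so the 8 genes, whose values ran from 40.3 (Cdkn1c) to 6903 (Ccnd2), rest on more reads than that in each library. In the authors' selected-gene tables, 8 replicate 2 columns hold a library that carries another name in the full tables. There, the names CORT 4 and 8 h replicate 2 stand on vehicle 16 and 20 h libraries, and vehicle 4 and 8 h replicate 2 stand on CORT 16 and 20 h libraries. The names CORT 16 and 20 h replicate 2 stand on CORT 4 and 8 h libraries. Likewise, vehicle 16 and 20 h replicate 2 stand on vehicle 4 and 8 h libraries. The names of the full tables were used, and the main calls are also given without these 8 libraries and under the other naming. Replicate 3 libraries were registered later than the others and take their time from the title alone.

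Markers of urothelium (6 genes), smooth muscle (5), fibroblasts (5), endothelium (5) and leukocytes (6) were present. Among markers of tissue or blood cells that a dissection can carry along, Myh4 was at 0 in 25 of 36 libraries, Cd79a in 10, Lep in 8, Adipoq in 3 and Myh1 in 2. The other skeletal muscle, fat and erythroid markers were above 0 in every library. Their medians ran from 16.75 (Plin1) to 2597 (Fabp4), with Acta1 at 1534 and Hbb-bs at 969.

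Per kilobase of exon, the order of the 8 genes was the same at its ends in both arms. Ccnd2 was highest at 376 ± 88.0 in CORT and 402 ± 120.3 in vehicle (normalized value per kb, SD, n = 18 each), and Ccnd1 followed with 265 ± 50.5 in CORT and 301 ± 72.3 in vehicle. Cdkn1b, Cdkn1a and Gadd45a lay in the middle, Myc next, and Cdkn1c and Wee1 were lowest, Wee1 with 44.2 ± 14.4 in CORT and 38.0 ± 8.40 in vehicle. The gap between Myc and Cdkn1c was the only one between neighbours that no library crossed, in either arm; all other neighbours in the order overlapped.

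Wee1 lies on chromosome 7 at 110122046 to 110143286 (mm10, plus strand) and encodes the kinase that holds CDK1 inactive. At 4 h its normalized value was 159, 292 and 263 in the CORT libraries, against 85.3, 103 and 91.1 in the vehicle libraries. All 3 CORT libraries lay above all 3 vehicle libraries, although CORT replicate 1 was well below its 2 companions. The means were 238 ± 70.3 in CORT and 93.1 ± 9.04 in vehicle (SD, n = 3 each), a log2 difference of 1.30 ± 0.16 (SE), or 2.46-fold, on the log2(value + 1) scale (limma, adjusted p = 0.000117). Here and at the other times, the SE and p use a spread shared by all 12 groups. The log2 SD of Wee1 in CORT at 4 h alone was 0.47, against 0.022 to 0.23 in the other groups. By p-value Wee1 stood first of the 17867 features tested at 4 h. It was the only one of the 8 regulators to pass at that time, where 0.162% of all features passed.

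The difference at 4 h rests in part on how the libraries are named. Without the 8 libraries that carry 2 names, Wee1 was 1.20 higher in CORT (log2), with an adjusted p of 0.0824, and under the other naming 0.85 higher, with an adjusted p of 1.00. In the 2 groups' replicate 3 libraries, which carry 1 name, Wee1 was at 263 in CORT and 91.1 in vehicle. Leaving out any 1 library gave log2 differences of 1.13 to 1.57, all with adjusted p at or under 0.00348. With 2 libraries per group, the adjusted p was 2.29e-05 without replicate 1, 0.407 without replicate 2 and 0.371 without replicate 3, at differences of 1.51, 1.20 and 1.19.

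At 8 h Wee1 was at 132, 152 and 141 in CORT, against 96.3, 114 and 133 in vehicle, and the ranges overlapped. At 12 h it was at 112, 117 and 121 in CORT, against 179, 152 and 155 in vehicle, so every CORT library was below every vehicle library, the reverse of 4 h. That log2 difference, -0.47 ± 0.16, did not pass over all features (limma, adjusted p = 0.757, unadjusted 0.00597).

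At 16 h the values were 159.6, 152 and 131 in CORT, against 163, 167 and 151 in vehicle. At 20 h they were 133, 129.6 and 107 in CORT, against 131, 154 and 137 in vehicle. The arms overlapped at both times. At 24 h CORT stood above again without overlap, with 162, 125 and 129 in CORT, against 109.8, 107 and 110.3 in vehicle (log2 difference 0.33 ± 0.16, limma, adjusted p = 0.767). Over the day, with differences of both signs, the mean log2 difference was 0.19 ± 0.06 (limma, adjusted p = 0.0809). With 1 library left out it ran from 0.17 to 0.24. The adjusted p (limma) then ran from 0.00612, without CORT 4 h replicate 1, the low library of its group, to 0.127. Without the 8 libraries of 2 names the difference was 0.18 (adjusted p = 0.354), and under the other naming 0.24 (0.541).

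**Figure D1:**
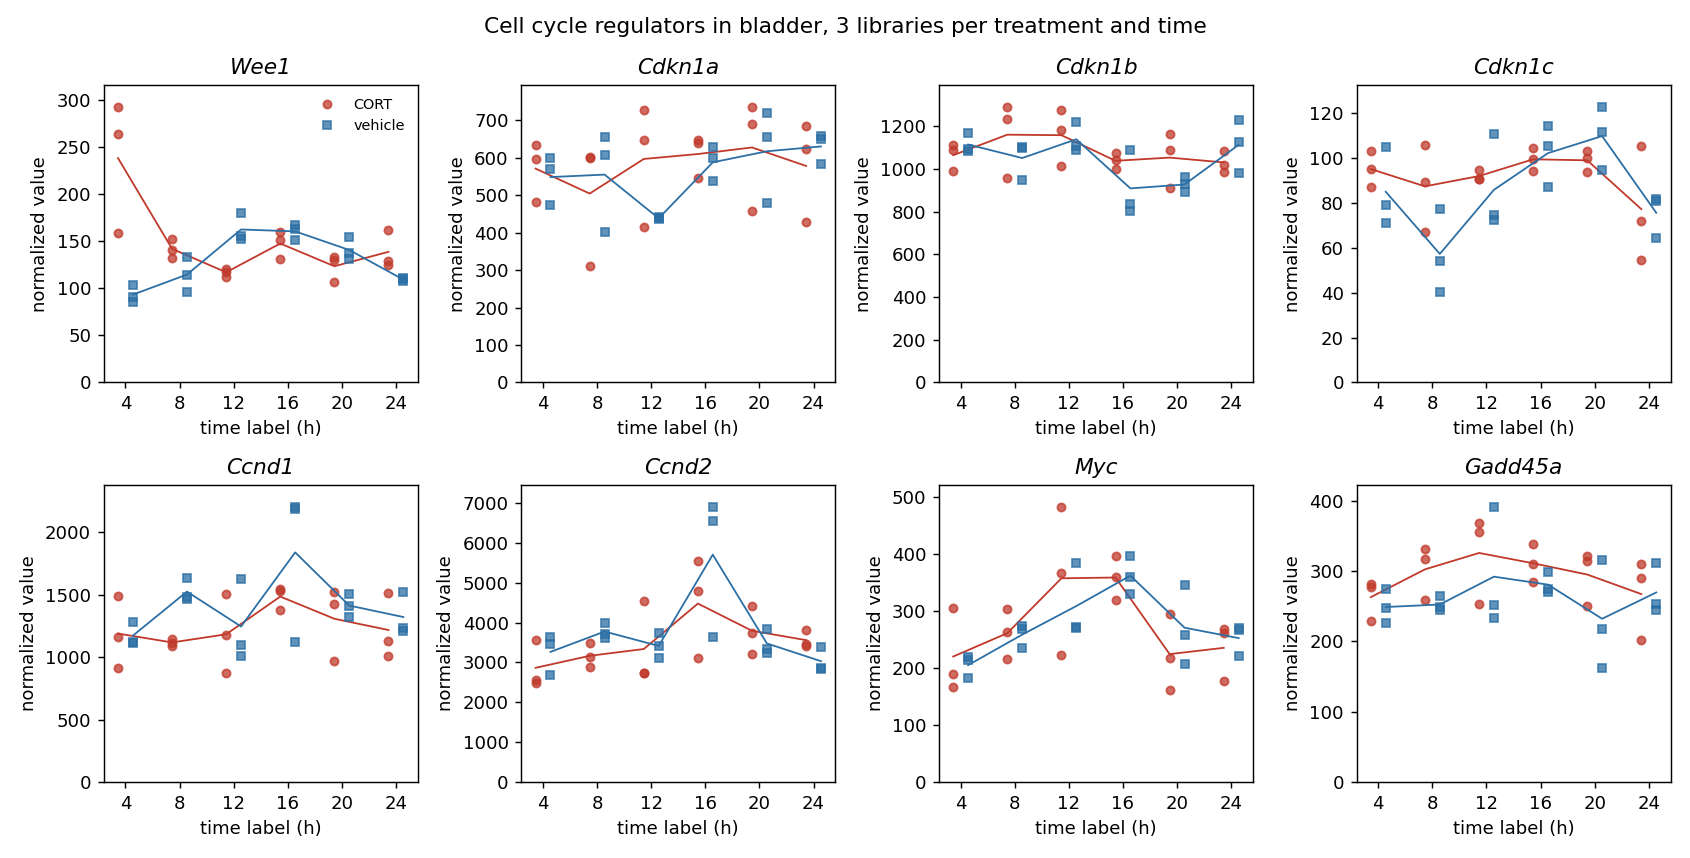
Normalized value (y axis) of each of the 8 regulators at the 6 time labels (x axis, h) in CORT (red circles, left of each label) and vehicle (blue squares, right of it); each point is 1 library and lines join the means of 3. Wee1 is highest in CORT at 4 h, where vehicle is lowest, while Ccnd2 and Myc have their highest mean at 16 h in both arms.

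A 24 h cosine curve was fitted to each arm's 18 libraries. In vehicle, Wee1 had an amplitude of 0.41 ± 0.05 (log2, mean to peak, SE) with its peak at 15.3 h, a 1.77-fold range from trough to peak (limma, adjusted p = 0.00100). It ranked 10 by p-value among 17945 features, of which 0.429% passed, and was the only regulator of the 8 to pass. At an unadjusted p under 0.05 in vehicle stood 5 of the 8 (Wee1, Myc, Cdkn1c, Ccnd2 and Cdkn1a) and 2254 of the 17945 features (limma). In CORT the fitted amplitude was 0.29 ± 0.11 with a peak at 3.88 h (adjusted p = 0.835). No feature passed in CORT (0%, limma), although 1055 of 17921 had an unadjusted p under 0.05, and of the 8 regulators 2 did, Myc and Ccnd2.

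The curves of Wee1 differed between arms. Its fitted peak in CORT minus that in vehicle was -11.4 h (95% interval -14.2 to -8.62 h), close to the opposite side of the day, while the amplitude differed by -0.12 ± 0.12 (log2). So near to 12 h, earlier and later cannot be told apart: with a replicate number left out the difference ran from -11.6 to 11.5 h, and that of the amplitude from -0.21 to 0.031. In CORT the mean of Wee1 was 238 at 4 h and 117 (12 h) to 147 (16 h) at the other times. Its CORT curve did not pass, so the fitted peak there reflects 1 high group and not a rhythm that was called. The test of the difference in curves gave an adjusted p of 0.0130 (limma), rank 13 of 17867 features, of which 0.106% passed; the other 7 regulators had adjusted p of 1.00. Without the 8 libraries of 2 names the peaks differed by -11.3 h, with an adjusted p of 0.183. Without replicate 1, 2 or 3 the adjusted p was 0.242, 0.442 or 0.589, so this call needs all 3 replicate numbers.

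Clock genes also had fitted peaks at other times in CORT than in vehicle, most of them by fewer hours than Wee1. Per2 and Per1, which encode repressors of the core clock, peaked at 3.20 h in CORT and 14.4 h in vehicle and at 2.61 h in CORT and 13.7 h in vehicle. Tsc22d3 (GILZ), a standard glucocorticoid target, peaked at 4.69 h in CORT and 15.5 h in vehicle. The difference in curves passed for Per2 (adjusted p = 0.000555, limma) but not for Per1 (0.253) or Tsc22d3 (0.955). Across 10 clock genes, 10 passed in vehicle and 0 in CORT (limma, with a background of 0% in CORT). At an unadjusted p under 0.05 in CORT stood 7 of these 10, against 1055 of all 17921 features (limma). In the test of the difference 9 of the 10 passed, all but Per1. Of these 9, Per2 and Ciart had peak differences of -11.2 and -10.1 h, and the other 7 lay between -8.25 h (Tef) and -4.28 h (Cry1). Without the 8 libraries of 2 names, 9 of these 10 passed in vehicle and 7 in the test of the difference, and under the other naming 0 in both.

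At 4 h, 5 of 8 glucocorticoid-responsive genes rose with Wee1: Tsc22d3, Errfi1, Per1, Fkbp5 and Sgk1; 0.112% of all features were called higher. Without the 8 libraries of 2 names, or under the other naming, 0 of these 8 passed. Tsc22d3 had values of 1854, 4707 and 3747 in CORT, against 659, 684 and 593 in vehicle. Per2 had 420.2, 913 and 919.5 in CORT, against 234, 210.3 and 186 in vehicle. In the CORT group at 4 h, replicate 1 was the lowest library for Wee1, Per1, Per2, Tsc22d3 and Usp2 alike.

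Marker sums also differed between the arms at 4 h. The summed value of the 6 urothelial markers was 53389 to 60350 in CORT and 36262 to 51679 in vehicle, and that of the 5 erythroid markers 2246 to 2747 in CORT and 1636 to 2135 in vehicle. The sums of the 5 endothelial markers were 3252 to 3415 in CORT and 3669 to 4063 in vehicle, and those of the 5 skeletal muscle markers 1360 to 1979 in CORT and 2246 to 2895 in vehicle. These 4 sums did not overlap between the arms, while those of smooth muscle, fibroblast, leukocyte and fat markers did. By medians the fat sum was mostly Fabp4 (2597), with Plin1 at 16.75, Adipoq at 14.7 and Lep at 3.58. Of the 40 genes tested in these 8 lists, 0 passed at 4 h (limma; 4 had an unadjusted p under 0.05), and the part of cell composition in the Wee1 difference was not tested. In whole bladder, a change in the share of a cell type and a change of RNA per cell cannot be told apart.

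**Figure D2:**
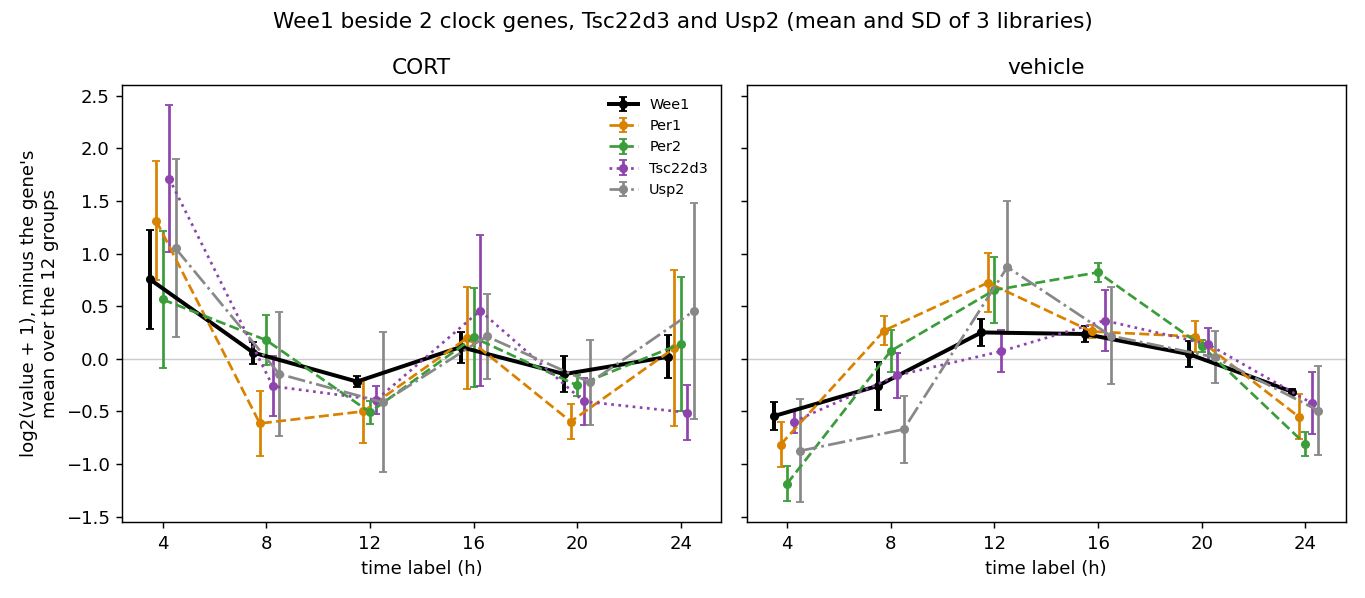
Mean and SD of 3 libraries of log2(value + 1), centred on each gene's mean over the 12 groups (y axis), by time label (x axis, h), in CORT (left) and vehicle (right) for Wee1 (black), Per1, Per2, Tsc22d3 and Usp2; points are set slightly apart on the x axis. Within CORT the mean of each of the 5 genes is highest at 4 h, and within vehicle it is lowest at 4 h.

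Over the 12 group means of log2(value + 1), the features most like Wee1 were Usp2, a ubiquitin-specific protease gene (Pearson's r = 0.92), Gm10800 (0.88), Tsc22d3 (0.88), Fam107a (0.87) and Phykpl (0.87). These are descriptions over 12 means that share a design, so they have no p. Per1 and Per2 correlated with Wee1 at 0.84 each and Dbp, a direct clock output, at 0.32. Library by library, the relation of Wee1 to Dbp gave r = 0.48 and Spearman's rho = 0.60 over the 18 CORT libraries (permutation tests with 100000 resamples, p = 0.0532 and 0.01005), and r = 0.23 and rho = 0.23 in vehicle (p = 0.346 and 0.354). Without the 2 libraries farthest from the median of Dbp, r was 0.51 in CORT and 0.037 in vehicle. Within replicate 3 alone (6 libraries) r was 0.64 in CORT and 0.40 in vehicle, and within replicates 1 and 2 (12) 0.48 in CORT and 0.17 in vehicle. After adjustment over the 6 relations computed (Wee1 with Dbp, Cdkn1a with Tsc22d3 and Ccnd1 with Mki67, in each arm), no r passed: the lowest adjusted p was 0.319.

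The inhibitors of the CIP/KIP family encode p21, p27 and p57. Cdkn1a (p21; chromosome 17, 29090976 to 29100727, plus strand) is the textbook target of p53 and is also induced by glucocorticoids in several cell types. Its values were 310.0 to 735 in CORT with a median of 612, and 402 to 718 in vehicle with a median of 590.5 (18 libraries each), and the log2 difference over the day was 0.03 ± 0.10 (limma, adjusted p = 0.898). At 4 h, when the glucocorticoid-responsive genes stood apart, Cdkn1a was at 481, 633 and 597 in CORT, against 599, 571 and 474 in vehicle, and the arms overlapped. The largest difference was at 12 h, 648, 414 and 727 in CORT, against 436, 438 and 440.5 in vehicle, a log2 difference of 0.40 ± 0.24 that did not pass (adjusted p = 1.00). The 3 vehicle libraries at 12 h were the closest together of any group of this gene, and CORT spread on both sides of them. Its fitted curves peaked at 18.9 h in CORT and 22.5 h in vehicle, with amplitudes of 0.13 and 0.20 (adjusted p = 0.976 and 0.391).

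RefSeq upstream windows of 250 bases (GRCm38.p6) matched 3 of the 8 regulators: Cdkn1a with 2 start sites, Cdkn1b and Gadd45a. Neither the E-box CACGTG (in 6.02% of all 32851 windows), nor AGGTCA, the half-site bound by REV-ERB and ROR (14.0%), nor TTANGTAA, the D-box (2.06%), nor the palindromic glucocorticoid response element (0.387%) was found on either strand of these 4 windows. A p53 element was present in 1 Cdkn1a window: 2 joined 10-base half-sites with CATG cores and at most 1 mismatch, a pattern found in 4 of 32851 windows (0.0122%). This search was added after the sequence was seen. The window at chr17:29090729-29090978, plus strand, is shown because p21 is the classic p53 target; the capitals mark the element, which starts 51 bases upstream of the start site.
Cdkn1a: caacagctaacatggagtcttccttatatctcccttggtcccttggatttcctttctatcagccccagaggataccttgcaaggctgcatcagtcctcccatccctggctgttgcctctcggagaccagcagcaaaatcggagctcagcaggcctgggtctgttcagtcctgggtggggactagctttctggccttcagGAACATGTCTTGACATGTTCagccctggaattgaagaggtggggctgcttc
Of p53 and 11 of its other known targets, 0 of 12 passed in the mean over the day or at 4 h (limma; 4 and 5 of them had an unadjusted p under 0.05), and 0 of 12 had a rhythm that passed in CORT or in vehicle (1 in each at an unadjusted p under 0.05).

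Cdkn1b (p27; chromosome 6, 134920401 to 134925513, plus strand) was the steadiest of the 8. It ranged from 908 to 1289 in CORT and from 804 to 1227 in vehicle, and its time means differed by 1.13-fold at most in CORT and 1.25-fold in vehicle. The log2 difference over the day was 0.06 ± 0.05 (limma, adjusted p = 0.518). Its lowest values were those of vehicle at 16 h, 834, 804 and 1086, against 1040.3, 997 and 1074 for CORT at that time, so 2 of 3 vehicle libraries were below all CORT libraries and the third above them.

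Cdkn1c (p57, an imprinted inhibitor; chromosome 7, 143458339 to 143461050, minus strand) had the lowest level per kilobase of the 3 inhibitors in both arms. In vehicle its mean was lowest at 8 h, 57.3 ± 18.8, and highest at 20 h, 109.8 ± 14.1 (SD over 3 libraries), 1.92-fold apart, while CORT means stayed between 77.3 and 99.5. At 8 h its values were 89.2, 106 and 67.0 in CORT, against 77.5, 40.3 and 54.1 in vehicle. The log2 difference, 0.63 ± 0.22, was the second largest of the 48 differences by gene and time, and the ranges overlapped in 1 library (limma, adjusted p = 0.162, unadjusted 0.00796). The lowest vehicle library of that time, 40.3, is one that carries 2 names. The fitted amplitude was 0.11 ± 0.08 in CORT and 0.36 ± 0.11 in vehicle, with a difference of -0.25 ± 0.14 (adjusted p of the curves 0.976 and 0.237, and of their difference 1.00). With the 8 libraries of 2 names left out, the vehicle amplitude was 0.23 and the difference -0.078, and under the other naming 0.031 and 0.052, so the sign of the difference turned. Of the Cdkn1c exon bases, 30.65% overlap Gm44732 on the other strand, whose median value was 0; whether the counts used strand is not stated.

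Ccnd1 and Ccnd2 encode the D-type cyclins that activate CDK4 and CDK6. Ccnd1 (chromosome 7, 144929931 to 144939925, minus strand) averaged 1250.1 ± 238 in CORT and 1419 ± 340.3 in vehicle over the day (SD, n = 18 each), a log2 difference of -0.17 ± 0.10 (limma, adjusted p = 0.310). At 8 h its values were 1091, 1146 and 1117 in CORT, against 1632, 1463 and 1479.6 in vehicle. The 2 groups were tight and did not overlap, with a log2 difference of -0.45 ± 0.23 that did not pass (adjusted p = 0.365). Of Ccnd1's exon bases, 23.36% overlap LTO1 on the other strand.

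Ccnd2 (chromosome 6, 127125162 to 127152193, minus strand) was also without overlap at 8 h, with 3489, 3127 and 2887 in CORT, against 3616, 3991 and 3721 in vehicle (log2 difference -0.26 ± 0.22, limma, adjusted p = 0.613). At 24 h the order was the opposite, 3454, 3411 and 3816 in CORT, against 3398, 2867 and 2835 in vehicle (0.23 ± 0.22, adjusted p = 1.00). Both arms had their highest mean at 16 h, 4476 ± 1240.5 in CORT and 5702 ± 1787 in vehicle. At that hour the libraries split within each arm: Ccnd2 was at 3112, 5537 and 4779 in CORT and at 6555, 6903 and 3648 in vehicle. The same 2 vehicle libraries, replicates 1 and 2, were also the highest of all 36 for Ccnd1 (2189, 2204 and 1123 in vehicle, against 1378, 1530.0 and 1547 in CORT) and the lowest of all 36 for Cdkn1b. Replicate 1 of these had the fewest reads behind 20 units of all 36 libraries (12), and replicate 2 carries 2 names. Ccnd2 is the one regulator among the genes in the authors' deposited tables of selected genes, in that of vehicle replicates 1 and 2. Here its 24 h curve did not pass in either arm (amplitude 0.25 ± 0.09 with a peak at 17.7 h in CORT and 0.28 ± 0.10 with a peak at 14.8 h in vehicle; adjusted p = 0.835 and 0.388).

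Myc (chromosome 15, 61985391 to 61990374, plus strand) encodes a transcription factor that drives growth and entry into the cycle. Its group means were lowest at 4 h and highest at 16 h in both arms. At 4 h it was at 167, 189 and 305 in CORT, against 183, 213 and 219 in vehicle. At 16 h it was at 319.7, 396 and 360.0 in CORT, against 330.3, 396 and 359 in vehicle. Replicate 2 of each arm carries 2 names at both times. Under the other naming both libraries at 396 count as 4 h libraries. The fitted peaks were 13.5 h in CORT and 15.2 h in vehicle, a difference of -1.71 h (95% interval -4.87 to 1.45 h), and the amplitudes 0.38 ± 0.12 and 0.33 ± 0.07 differed by 0.05 ± 0.14. Neither curve passed (limma, adjusted p = 0.748 in CORT and 0.101 in vehicle). In vehicle the adjusted p ran from 0.0437 (without 20 h replicate 2) to 0.225 with 1 library left out, and was 0.418 without the 8 libraries of 2 names. Under the other naming the peaks of Myc differed by -4.27 h.

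Gadd45a (chromosome 6, 67035096 to 67037457, minus strand) encodes a stress protein that binds p21 and inhibits CDK1 and is a target of p53. Of its exon bases, 19.1% overlap E230016M11Rik on the other strand, whose median value was 10.8. Its mean was 294 ± 43.9 in CORT and 263 ± 47.8 in vehicle (SD, n = 18 each), a log2 difference over the day of 0.17 ± 0.08 (limma, adjusted p = 0.256). CORT means were above vehicle means at 5 of the 6 times. At 20 h the values were 321, 250.0 and 314 in CORT, against 316, 163 and 218 in vehicle, which overlapped (log2 difference 0.39 ± 0.20, adjusted p = 0.856). With each arm on the scale of its own 18 libraries, both Gadd45a (0.24, adjusted p = 0.0465) and Wee1 (0.25, adjusted p = 0.0109) passed in the mean over the day. On that scale 3140 features passed, 83.1% of them higher in CORT, against 734 with 31.3% higher on the shared scale; the median over all features was 0.073 and 0.018 (log2).

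**Figure D3:**
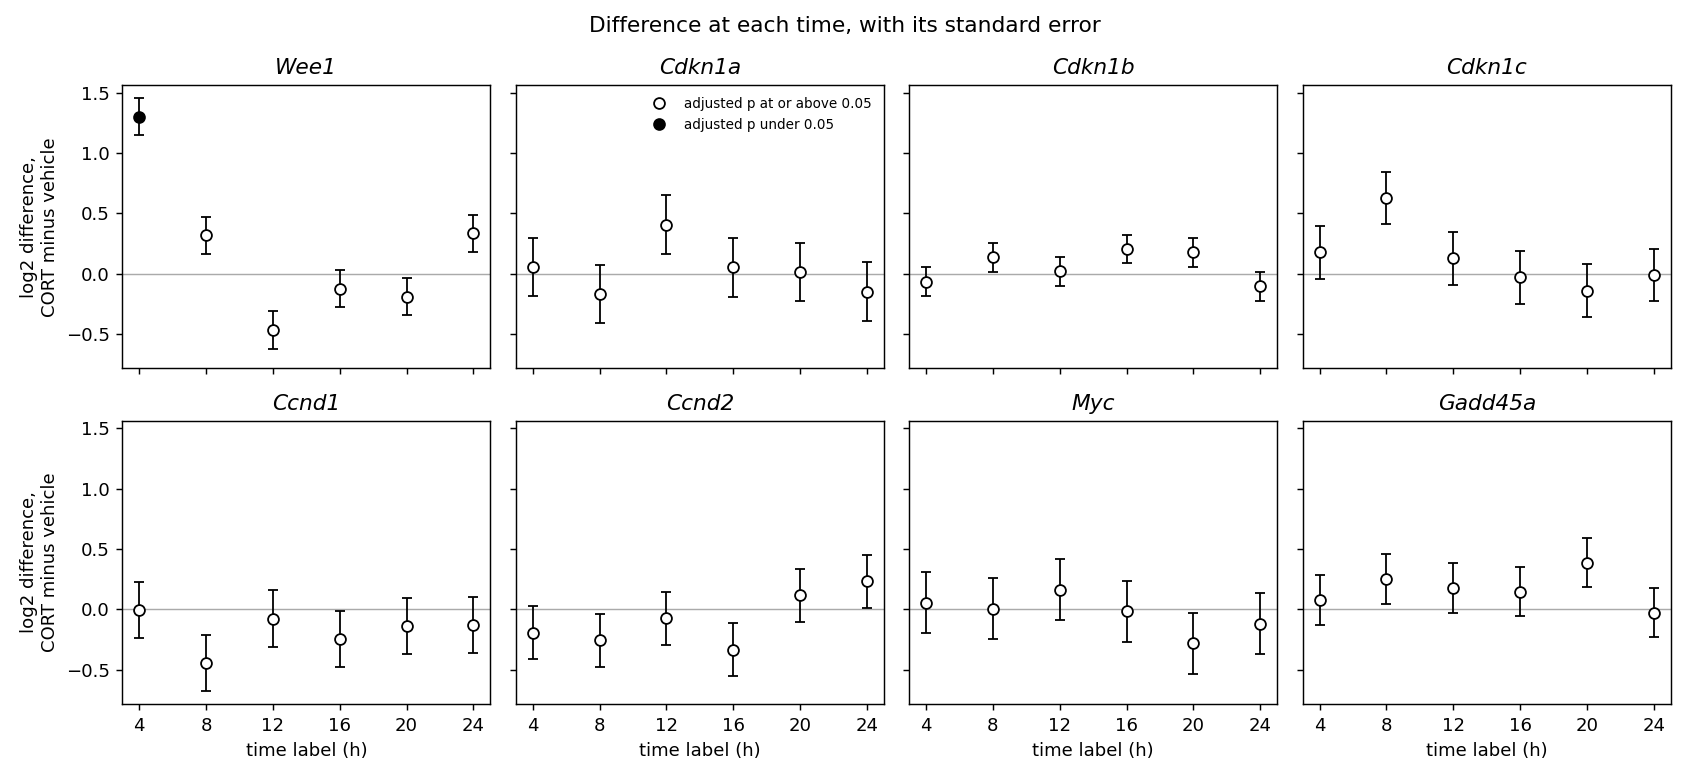
Log2 difference, CORT minus vehicle (y axis), with its standard error from limma, at each time label (x axis, h) for the 8 regulators; filled points have an adjusted p under 0.05. The single filled point is Wee1 at 4 h, at 1.30.

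Counted over the set, 0 of 8 regulators passed in the mean over the day, where 4.11% of the 17867 features tested did (limma; 1 of 8, Wee1, had an unadjusted p under 0.05). By time, 0 of 8 passed at 8, 12, 16, 20 and 24 h, where the shares of all features were 0.795%, 0.0448%, 0.0112%, 0% and 0.0336%. At an unadjusted p under 0.05 stood Cdkn1c at 8 h and Wee1 at 12 and 24 h; at 20 h, where no feature passed, 1073 had such a p. Libraries of the 2 arms did not overlap for 1 of 8 regulators at 4 h, 2 at 8 h, 1 at 12 h, 0 at 16 and 20 h and 2 at 24 h, against 13.4%, 23.2%, 6.49%, 6.26%, 14.6% and 10.9% of all features at these times. The median log2 difference over the day was 0.047 over the 8 regulators and 0.018 over all features.

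**Figure D4:**
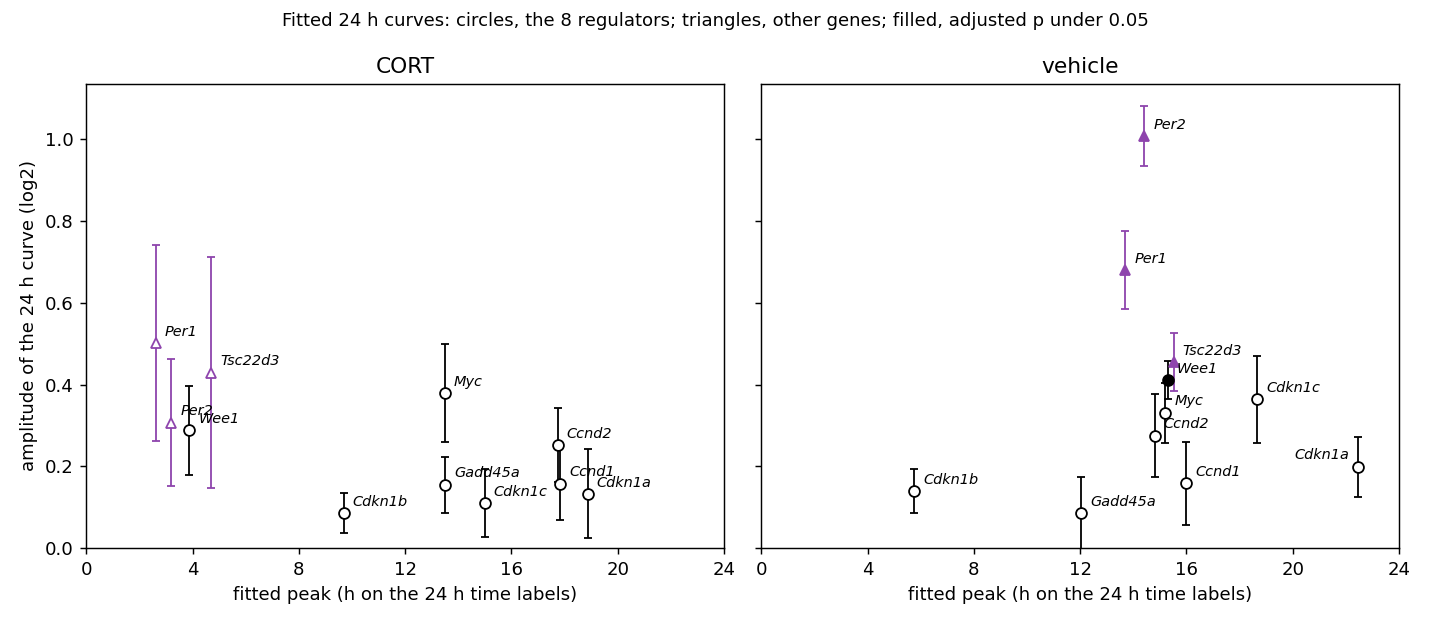
Fitted peak (x axis, h) and amplitude (y axis, log2, with SE) of the 24 h curve in CORT (left) and vehicle (right) for the 8 regulators (circles) and Per1, Per2 and Tsc22d3 (triangles); filled symbols have an adjusted p under 0.05. The peak of Wee1 lies near the triangles in both arms, at 3.88 h in CORT and 15.3 h in vehicle, while that of Myc is at 13.5 h in CORT and 15.2 h in vehicle.

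Pairs of regulators were compared across the 18 libraries of each arm, 56 relations in all. Myc and Gadd45a were correlated, with r = 0.78 and rho = 0.76 in CORT and r = 0.66 and rho = 0.61 in vehicle (permutation tests with 100000 resamples, p = 0.00012 and 0.00036 in CORT, 0.00224 and 0.00828 in vehicle; for r, adjusted p = 0.00392 in CORT and 0.0251 in vehicle; for rho, 0.0202 in CORT and 0.0914 in vehicle). With 1 library left out the adjusted p for r reached 0.0138 in CORT and 0.0797 in vehicle, and with a replicate number left out 0.0956 in CORT and 0.228 in vehicle. Without the 2 libraries farthest from the median, r was 0.75 in CORT and 0.56 in vehicle. Within replicate 3 (6 libraries) it was 0.53 in CORT and 0.69 in vehicle, and within replicates 1 and 2 (12) 0.79 in CORT and 0.68 in vehicle. At 12 h, replicate 2 had the highest value of its group for both genes in both arms: Myc was at 482 in CORT and 384 in vehicle, and Gadd45a at 369 in CORT and 391 in vehicle. That vehicle library also had the largest urothelial marker sum (89210) and the smallest smooth muscle sum (127990) of its arm, and their part in the relation was not tested.

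Ccnd1 and Ccnd2 were related in CORT with r = 0.69 and rho = 0.67 (p = 0.00152 and 0.00286; adjusted p = 0.0213 for r and 0.0582 for rho) and without the 2 farthest libraries with r = 0.62. In vehicle r was 0.70 but rho 0.28 (p = 0.00288 and 0.253), and r fell to 0.062 without 16 h replicates 1 and 2, on which that relation rests. Cdkn1b with Ccnd2 in vehicle also rests on them: r was -0.74 with and -0.38 without them. Cdkn1b with Ccnd1 in vehicle kept its sign, with r = -0.78 over 18 libraries (adjusted p = 0.00392) and -0.55 without these 2. The other pairs with an adjusted p under 0.05 were Wee1 with Myc in vehicle (r = 0.64) and Cdkn1a with Cdkn1b in CORT (r = 0.61). By rho, Myc with Gadd45a in CORT alone of these 8 relations had an adjusted p under 0.05. These libraries share times and arms, so the relations are not those of one fixed condition.

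**Figure D5:**
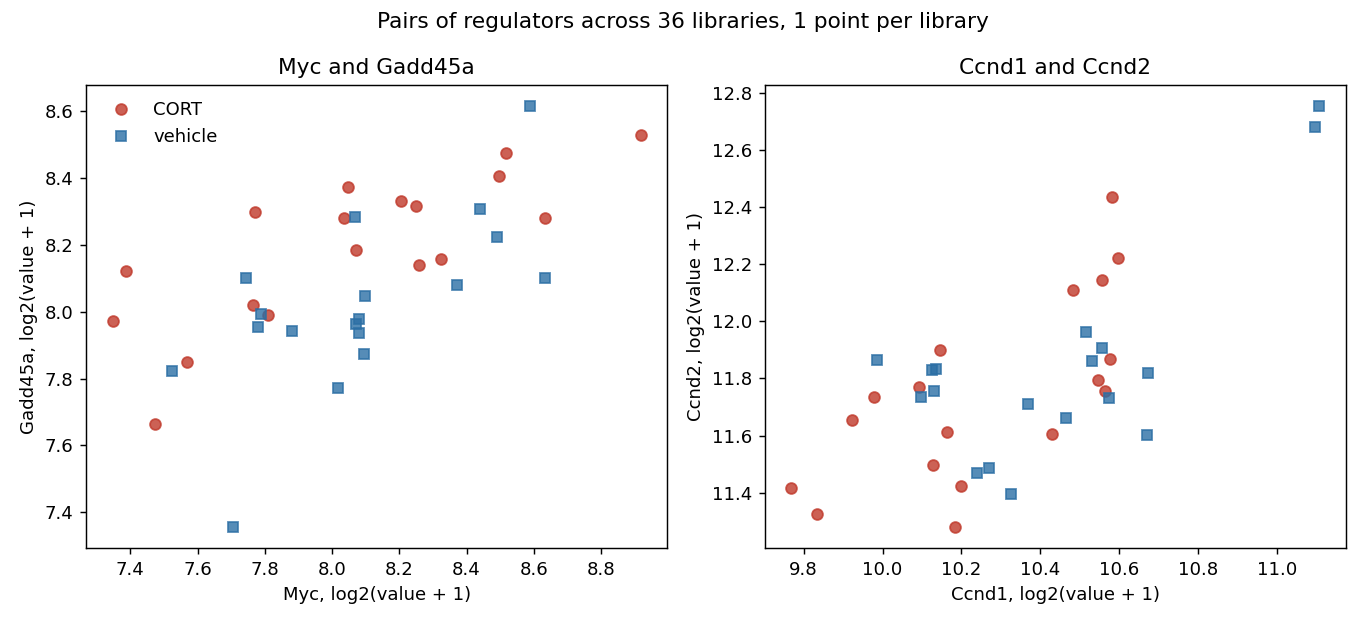
Log2(value + 1) of Myc against Gadd45a (left) and of Ccnd1 against Ccnd2 (right), 1 point per library, CORT as red circles and vehicle as blue squares. In the right panel, 2 vehicle libraries, 16 h replicates 1 and 2, lie apart from the other 34.

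Over the 12 group means, the features most like Cdkn1a were Tsc22d2 (r = 0.93), Nfil3, a clock-linked bZIP repressor (0.91), Smndc1 (0.91), Cobl (0.87) and Kcnf1 (0.87), none of which was among those most like Wee1. Library by library, Cdkn1a with Tsc22d3 gave r = 0.12 in CORT and 0.075 in vehicle (permutation p = 0.648 and 0.769; Spearman's rho = -0.19 and 0.030), and Ccnd1 with Mki67, a proliferation marker, r = -0.14 in CORT and -0.15 in vehicle (p = 0.589 and 0.540; rho = -0.24 and -0.11). Without the 2 libraries farthest from the median of the second gene, r was 0.020 in CORT and 0.024 in vehicle for the first pair and 0.0071 in CORT and -0.37 in vehicle for the second. Within replicate 3 alone (6 libraries) it was -0.48 in CORT and 0.34 in vehicle for the first pair and 0.17 in CORT and 0.54 in vehicle for the second, and within replicates 1 and 2 (12) 0.26 in CORT and -0.085 in vehicle for the first and -0.35 in CORT and -0.25 in vehicle for the second, so the sign differed between replicate sets for both pairs in both arms.

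Around the 8 regulators, several other cell cycle genes were lower in CORT over the day. Of the 62 listed genes in all, 12 passed. Of 6 other cyclins, 3 fell, where 2.82% of all features did. Ccna2 fell by 0.95 ± 0.12 (log2, SE, limma, adjusted p = 0.000103), Ccnb1 by 0.88 ± 0.16 (0.00282) and Ccnb2 by 0.77 ± 0.22 (0.0423). Of 4 CDKs, Cdk1, the kinase that WEE1 inhibits, fell by 0.63 ± 0.13 (0.00552), while Cdk2 had -0.06. Of 8 mitotic entry kinases and phosphatases, Plk1 fell by 0.90 ± 0.15 (0.00142), and Cdc25c, the phosphatase opposed to WEE1, had -0.85 ± 0.27 (adjusted p = 0.0692). Cdc25c was near the floor, with a mean log2(value + 1) of 1.02 in CORT and 1.87 in vehicle. Of 11 proliferation markers, which include Ccna2, Ccnb1 and Cdk1, 7 fell, among them Mki67 by 1.06 ± 0.16. The median over these 11 was -0.84, against 0.018 over all features. Without the 8 libraries of 2 names 1 of the 62 listed genes passed, Ccna2 (-0.83, adjusted p = 0.0336), with 6 features in all. Under the other naming 0 did, with Ccna2 at -0.72 (adjusted p = 0.401).

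Among upstream regulators, E2f1 fell by 0.37 ± 0.09 and E2f2 by 0.59 ± 0.14 (adjusted p = 0.0198 and 0.0200), 2 of 8 in the Rb and E2F list, and Mxd3 fell by 0.76 ± 0.18 (0.0161), 1 of 10 in the MYC network, where Mycn had -0.56 (0.0655). Mxd3 was low as well, with a mean log2(value + 1) of 2.38 in CORT and 3.15 in vehicle. Of the 4 other CDK inhibitors 0 passed (limma; 1 at an unadjusted p under 0.05), with Cdkn2c at -0.27 and Cdkn2b at 0.11 (adjusted p = 0.133 and 0.555), and in the p53 list Btg2 had 0.26 and Trp53 -0.10 (0.0986 and 0.118). The 2 other Gadd45 genes had 0.06 (Gadd45b) and -0.11 (Gadd45g). At 4 h, when Wee1 rose, 0 of the 62 passed (limma; 14 had an unadjusted p under 0.05). In vehicle, 2 of the 62, Ccnb1 and Cdc25b, had a 24 h rhythm that passed (0.429% of all features did; 18 of the 62 had an unadjusted p under 0.05), peaking at 7.04 and 6.33 h (adjusted p = 0.00877 and 0.00835), hours before the vehicle peak of Wee1. Neither call held without the 8 libraries of 2 names or under the other naming (0 of 62, limma).

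Endothelial markers were lower too over the day, 5 of 5 (Vwf, Pecam1, Tek, Cdh5 and Kdr), where 2.82% of all features were called lower. Their sums were 1941 to 3465 in CORT and 2571 to 5034 in vehicle. Of 5 fibroblast markers 2 were called lower, Col1a1 and Col1a2, with sums over the list of 85876 to 157337 in CORT and 97999 to 211738 in vehicle. The other fibroblast markers did not pass, with Pdgfra at -0.18, Dcn at 0.08 and Lum at 0.02 (log2). When the 8 libraries of 2 names were left out, 1 of 5 endothelial and 0 of 5 fibroblast markers passed (5 and 4 were lower in CORT). Under the other naming 0 of both lists passed. Their part in the lower cell cycle genes was not tested. Markers of urothelium, smooth muscle, leukocytes, skeletal muscle, fat and erythroid cells had 0 calls among 30 genes in the mean over the day (limma; 5 at an unadjusted p under 0.05).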

How the data were processed

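Total RNA libraries of mouse bladder (rRNA-depleted, directional kit, per the labels' protocols) were analysed, 18 from CORT and 18 from vehicle animals. Per the submitters' processing notes the build was mm10; no aligner or counter is named there or in the labels. The authors deposited a linear signal per gene: read counts quantile normalized over the 12 libraries of each table, as its values (multiples of 1/12, the same sorted set in every library) show. The authors also deposited log2 values of selected genes, used here for names and membership.

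The tables were brought to 1 scale over all 36 libraries (mean of the sorted sets, ranks of each library), a step checked on simulated counts. Values were analysed as log2(value + 1), which understates changes of low genes. A feature was dropped from a fit where over 50% of its libraries held the table's minimum; all 8 regulators passed that filter in each fit. Tests used limma 3.58.1 in R 4.3.3 with Benjamini-Hochberg adjustment over all features tested and a threshold of 0.05: a model of 12 group means, 24 h cosine and sine terms per arm, and their interaction with treatment. A standard error with ± belongs to limma unless SD is written. Correlations and their two-sided permutation tests were computed with numpy 2.4.6, with ranks from scipy 1.17.1. Gene positions are those of GENCODE M21.

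The members and gene lists were chosen with earlier results of these data known. Named besides them are, from each cell cycle list, the 2 genes of smallest p over the day, genes a count rests on, and the 5 features most like Wee1 and Cdkn1a; the p53 pattern, the pairs of regulators, and other genes were chosen after values were seen. Alternatives were another pseudocount (10), a minimum mean value of 10 or no filter, an intensity trend, replicate number as a block, the other naming of 8 libraries, their omission, separate scales, and leaving out replicates.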

Additional observations from a re-analysis of the deposited data

Results flagged for a closer look

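The 24 h curve of Wee1 differed between treatments in a test of the difference itself (limma interaction, adjusted p = 0.0130). Its fitted peak in CORT minus that in vehicle was -11.4 h, too near to 12 h to call earlier or later. By the fits Wee1 peaked at 3.88 h in CORT, where the curve itself did not pass, and at 15.3 h in vehicle. Its 4 h values of 159, 292 and 263 in CORT, against 85.3, 103 and 91.1 in vehicle, and its 12 h values of 112, 117 and 121 in CORT, against 179, 152 and 155 in vehicle, lay on opposite sides.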

How the results depend on the processing

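The 3 calls for Wee1 (4 h, vehicle rhythm, difference in rhythm) held with a pseudocount of 10, a minimum mean value of 10, no filter, an intensity trend, the replicate block and separate scales, and without any single library. They did not hold under the other naming (log2 difference 0.85 at 4 h, amplitude 0.27, peaks -11.3 h apart; adjusted p = 1.00 each), and not in full without the 8 libraries of 2 names (the vehicle rhythm held, adjusted p = 0.0384) or without a replicate number (4 h difference 1.19 to 1.51; vehicle amplitude 0.37 to 0.45, adjusted p = 0.0444 to 0.151). The cause was not tested. Without a replicate number the Wee1 peaks differed by -11.6 to 11.5 h. The Cdkn1c amplitude difference turned to 0.052 under the other naming. Differences over the day near 0 changed sign: Myc to 0.0078 and Cdkn1b to -0.0049 under the other naming, Myc to 0.0025 without the 8 libraries and 0.037 on separate scales, and with libraries left out Myc ranged from -0.12 to 0.037 and Cdkn1a from -0.027 to 0.087.

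Counts of features called moved more. Over the day 734 became 1240 with the replicate block, 3140 on separate scales, 6 without the 8 libraries and 0 under the other naming (1 to 1282 with libraries left out: 1 without replicate 2, 1282 without vehicle 12 h replicate 2). At 4 h, 29 became 45 (pseudocount 10), 47 (minimum mean of 10), 52 (block), 45 (trend), 48 (separate scales), 2 (other naming) and 0 (without the 8), with 0 to 89. At 8 h, 142 became 263, 267, 262 and 224 under the first 4 of these and 0 under the last 2, with 1 to 287. At 12 h, 8 became 0 (other naming) and 3 (without the 8), with 0 to 10; at 16 h, 2 became 0 under both, with 0 to 4; at 20 h, 0 became 1 without a filter and 1 without the 8, with 0 to 68; at 24 h, 6 became 14, 17, 10 (block), 10 (trend) and 0 (other naming), with 0 to 15. The vehicle rhythm count of 77 became 142, 146 and 160 (trend), 0 (other naming) and 17 (without the 8), with 4 to 146; that in CORT of 0 became 1 under pseudocount 10, the minimum mean, the block and the trend, with 0 to 3; the difference count of 19 became 0 (other naming) and 10 (without the 8), with 1 to 23.

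Among the correlations, Cdkn1a with Tsc22d3 in vehicle turned to -0.036 (other naming) and -0.013 (without the 8), and Ccnd1 with Mki67 in CORT to 0.14 (other naming). With libraries left out, Cdkn1a with Tsc22d3 ranged from -0.054 to 0.26 in CORT and -0.085 to 0.28 in vehicle, and Ccnd1 with Mki67 from -0.35 to 0.081 in CORT and -0.29 to 0.21 in vehicle; Wee1 with Dbp stayed between 0.44 and 0.54 in CORT and 0.087 and 0.34 in vehicle. Alternatives for pairs of regulators were added after seeing the data: only Myc with Gadd45a in CORT and Cdkn1b with Ccnd1 and with Ccnd2 in vehicle, and Myc with Gadd45a in vehicle, kept an adjusted p for r under 0.05 under a pseudocount of 10, the block, the other naming and without the 8 libraries. For each of the 8 pairs called, leaving out 1 of the 3 replicate numbers raised the adjusted p above 0.05 (highest values 0.0956 to 0.655).

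Libraries of the same replicate number tended to deviate together. Of 198 same-numbered pairs of libraries, 134 had correlated deviations over 0.1 (mean r = 0.23, -0.52 to 0.82). Of 396 pairs of different number, 99 did (mean r = -0.11). Deviations were taken from each group's own mean, so the mean r of different-numbered pairs is largely set by that of same-numbered pairs. It is no separate observation. The main fits did not model replicate number, which entered only as the block among the alternatives. The replicate block changed no other call for the 8 regulators.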
